A study of Mus musculus with 360 samples.

Results

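Of the 360 single C1498 cells in the series, 275 make up the pair described here: 52 cells heated at 45 °C and picked 10 h after the end of heating, and the rest, 61.9% of all cells in the series, heated in the same way and picked at 5 h. They were chosen by their sample titles alone, which give the temperature and the time, and no measured value was used. C1498 is an established mouse line described as acute myeloid leukemia. Cells were warmed for 10 min to 45 °C, or to 37 °C as the control, followed by time-lapse imaging, and picked one by one with an automated imaging and picking system called ALPS. Each arm was sampled 1 h before and 1 h, 5 h, 10 h and 15 h after heating. The 37 °C cells of 10 h (6 cells) and of 5 h (6 cells) show what the same interval looks like without the 45 °C step. The comparison asks how the RNA of heated cells at 10 h differed from that at 5 h.

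A short heat shock unfolds proteins and switches on heat shock factor 1 (HSF1), which binds heat shock elements and raises the genes of chaperones such as HSP70, HSP90 and their J-domain and BAG partners. As chaperones free up they bind HSF1 again, and the response dies down over hours. Other programs take part in recovery from protein damage: NRF2, which raises genes of glutathione and thioredoxin metabolism through antioxidant response elements, selective autophagy through the adaptor p62, and feedback genes that dampen growth signals. None of this background is a result of the data below.

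No label names separate cultures, so each group of cells was read as 1 sample and no test between groups was made. Molecule counts (UMIs) of all cells in a group were summed per gene and given as CPM, the UMIs of a gene out of 1000000 UMIs of that group. CPM is thus a share, and the amount of RNA per cell was not measured. The difference is the log2 ratio of the 10 h CPM over the 5 h CPM, so a positive value is higher at 10 h. Its 95% interval holds the error of counting molecules and leaves out variation from cell to cell or culture to culture. A gene was called where the difference was at least 2-fold, which is a size and not a test.

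The 52 cells at 10 h held 979798 UMIs in all and 1060 to 42711 per cell (median 18741), and the cells at 5 h held 6808982 UMIs and 3443 to 122196 per cell (median 29075). Some cells stood apart. Rn45s, the precursor of ribosomal RNA, took 2.92% to 85.9% of a cell's UMIs at 10 h (median 9.36%) and 6.04% to 79.6% at 5 h (median 12.4%). At least 50% of UMIs were Rn45s in 7 cells at 10 h and in 2 cells at 5 h, and 5 cells at 10 h and 1 cell at 5 h had fewer than 5000 UMIs. Without these 7 cells at 10 h and 3 cells at 5 h, 750 genes were called higher at 10 h, against 699 with all cells. The per-cell ranges, medians and counts of cells given below include these cells, and median depth was lower at 10 h. How far this weighs on the counts of cells above the 5 h median was not tested.

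The cells did not look myeloid by their RNA. Of 15 granulocyte and macrophage markers, 2 had a UMI at 10 h (3 UMIs, 3.06 CPM) and 6 at 5 h (98 UMIs, 14.4 CPM), and Lyz2, Spi1, Kit and Csf1r were at 0 in both heated groups and in both 37 °C groups of these times. Cd3e, which encodes a chain of the CD3 complex, had 190.9 CPM at 10 h and 217.1 CPM at 5 h, and the leukocyte phosphatase gene Ptprc at 292 and 271 CPM. Cd3g stood at 151.1 and 193.3 CPM, but Cd3d at 7.14 and 6.17 CPM. Of 9 T cell markers 6 had an entry, and 4 of these had a UMI at 10 h and 5 at 5 h. Cd4 was at 0 in both heated groups, and Cd8a was at 0 at 10 h. Summed T cell markers stood at 438 CPM at 10 h and 487 CPM at 5 h. The summed markers of B, NK, erythroid, platelet, fibroblast, endothelial and epithelial cells each stayed at or under 12.3 CPM. The line is therefore called by its name only.

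Promoter sequences of 4 genes are shown first because they carry the motifs known for 2 groups of genes below: heat shock elements in the chaperone genes Hsph1 and Bag3, which stood lower at 10 h, and antioxidant response elements in Gclm and Me1, which stood higher. All come from RefSeq (GRCm38.p6) and run 5′ to 3′ on the gene's strand, from 250 bases before to 50 bases after a transcript start listed there. For Hsph1 that start lies inside the outer coordinates of the gene given below. Capitals mark the fixed letters of GAANNTTC or TTCNNGAA (heat shock element, each its own reverse complement) and of TGACNNNGC (antioxidant response element, either strand).
Hsph1 (chr5:149636287-149636586, minus strand): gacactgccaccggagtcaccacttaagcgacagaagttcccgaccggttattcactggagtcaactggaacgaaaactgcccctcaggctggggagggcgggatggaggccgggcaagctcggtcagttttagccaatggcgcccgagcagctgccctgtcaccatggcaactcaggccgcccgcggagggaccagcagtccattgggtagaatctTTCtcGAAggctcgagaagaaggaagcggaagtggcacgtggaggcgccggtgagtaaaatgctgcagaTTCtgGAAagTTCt
Bag3 (chr7:128523333-128523632, plus strand): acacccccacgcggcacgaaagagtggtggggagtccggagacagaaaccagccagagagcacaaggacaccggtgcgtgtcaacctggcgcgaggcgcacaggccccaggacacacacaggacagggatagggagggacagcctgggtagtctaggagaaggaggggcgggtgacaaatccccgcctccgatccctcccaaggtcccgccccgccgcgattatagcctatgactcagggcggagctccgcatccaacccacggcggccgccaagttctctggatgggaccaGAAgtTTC
Gclm (chr3:122245307-122245606, plus strand): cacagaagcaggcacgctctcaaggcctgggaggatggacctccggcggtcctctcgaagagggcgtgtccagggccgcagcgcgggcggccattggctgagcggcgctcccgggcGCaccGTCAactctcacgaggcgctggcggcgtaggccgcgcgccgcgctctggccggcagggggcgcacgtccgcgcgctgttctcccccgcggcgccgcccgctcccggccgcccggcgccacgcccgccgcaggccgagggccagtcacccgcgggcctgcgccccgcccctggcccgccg
Me1 (chr9:86695865-86696164, minus strand): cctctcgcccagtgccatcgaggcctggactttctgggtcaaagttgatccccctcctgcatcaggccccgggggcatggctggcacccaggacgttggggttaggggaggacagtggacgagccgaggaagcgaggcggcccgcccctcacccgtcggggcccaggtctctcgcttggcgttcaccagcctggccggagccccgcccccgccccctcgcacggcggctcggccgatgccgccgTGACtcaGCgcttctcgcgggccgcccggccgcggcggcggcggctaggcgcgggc
The Hsph1 window held 3 heat shock matches, at -33, 36 and 41 bases from its start, and the last 2 share their middle GAA. A second listed Hsph1 window, shifted along the gene, held the same 3 stretches, at -54, 15 and 20 bases from its own start, and a second Me1 window held no antioxidant match. Bag3 held 1 at 42 bases. Gclm held 1 antioxidant match at -134 bases and Me1 held 1 at -6 bases. A match is a stretch of letters and not a shown binding site.

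Among promoters of the same length, 16.97% of all 27025 genes in the table held a heat shock match and 13.99% an antioxidant match. Of the measured chaperone genes with a promoter in that table, 2 of 4 in the HSP70 and HSP110 list, 3 of 10 in the HSP90 list and 5 of 14 in the J-protein and BAG list held a heat shock match, against 13.5% of all measured genes. An antioxidant match was present in 8 of 16 NRF2 list promoters, against 17.9% of measured genes. Over all called genes the motifs were no more common: 11.5% of the genes called lower at 10 h held a heat shock match and 15.9% of those called higher held an antioxidant match. Dnajb1, Sqstm1, Ftl1 and Fth1 had no such match in these windows.

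Across the 6264 genes measured in the heated pair, the cells at 10 h differed from those at 5 h mostly towards higher values. At 10 h, 699 genes were called higher (11.2%) and 110 lower (1.76%), and the whole interval lay past 2-fold for 2.94% and 0.479% of genes. A log2 ratio above 0 was found for 65.5% of genes and one below 0 for 34.5%, with a median of 0.20 and with 90% of genes between -0.64 and 1.34. This lean depends on how the groups are scaled. Of all called genes, 86.4% were higher at 10 h, against 70.6% after centring on the median gene, 60.4% with TMM factors (360 higher and 236 lower), 74.6% with the mean of per-cell CPM and 72.97% with every cell thinned to 5000 UMIs. It also depends on level. The median log2 ratio was 0.84 for the 534 genes at a mean under 20 CPM, of which 39.7% were called higher and which passed the filter only through the group where they are high. Of the genes named below, Anln, Chac1, Hspb11, Lss, Nr4a2, Rrp12, Socs1, Tfeb, Tnip1 and Trp53inp1 are among these. It was 0.33 for genes at a mean of 20 to 50 CPM, 0.02 at 100 to 500 CPM and -0.0034 at 500 CPM or more. With a mean of the 2 groups of at least 20 CPM required instead, a filter chosen after seeing the data, 8.5% of 5730 genes were called higher and 1.36% lower. That filter still keeps genes under 20 CPM in the lower group, which passed only through the higher group. Those under 20 CPM at 5 h include Abcc1, Apaf1, Bmf, Dusp2, Gadd45a, Me1, Sesn1, Slfn2, Tob1 and Xpc. First-ranked genes such as Atf7ip, Klf2, S100a11 and Ypel3 are among them too. List medians below are therefore to be read against the median of all genes in the same setting. It was 0.20 in the main setting, 0 after centring, -0.07 with TMM factors and 0.05 as a mean of per-cell CPM. In the 37 °C pair it was 0.05.

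**Figure D1:**
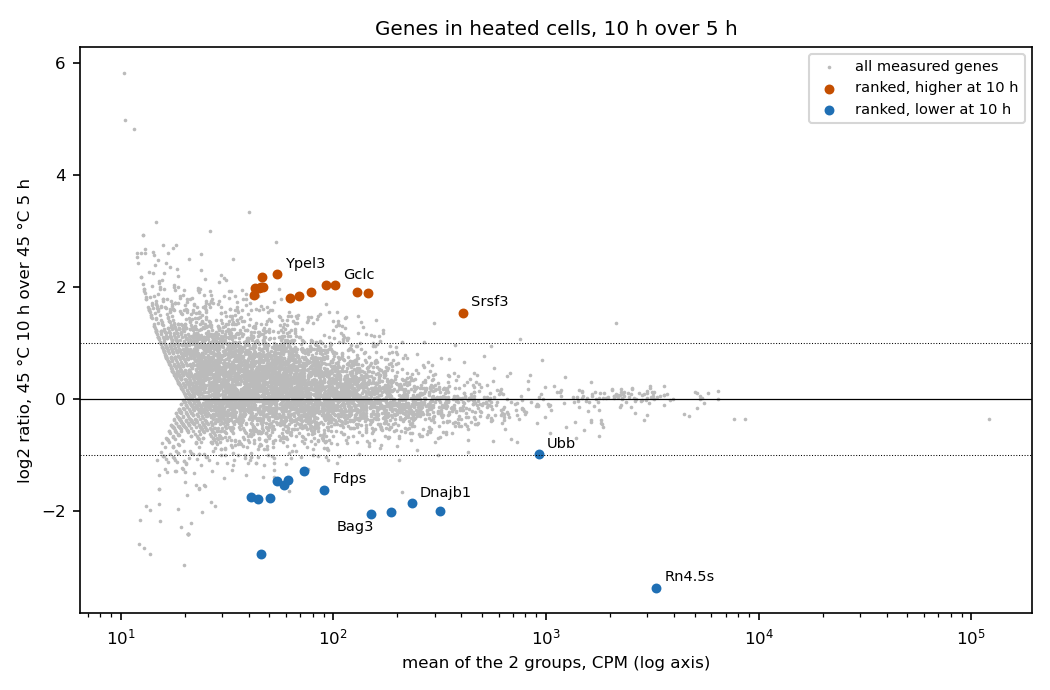
Each point is 1 of 6264 measured genes, with the mean CPM of the 2 groups on a log axis and the log2 ratio of heated cells at 10 h over heated cells at 5 h on the vertical axis; dotted lines mark 2-fold, and the 15 first-ranked genes in each direction are coloured. Most points at low level lie above 0, most points above 500 CPM lie close to 0, and Rn4.5s (-3.38) and Srsf3 (1.54) stand out among the more abundant RNAs.

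The HSF1-type chaperone genes were lower at 10 h than at 5 h, steeply for the co-chaperones Bag3, Dnajb1 and Dnajb4 and mildly for the abundant HSP90 and HSP70 genes. Bag3, a nucleotide exchange factor that links HSP70 to autophagy, had per-cell levels of 0 to 726 CPM at 10 h (median 36.5) and 0 to 919 CPM at 5 h (median 263). Only 3 of 52 cells at 10 h lay above the 5 h median, although the ranges overlapped. Summed, Bag3 (chr7:128523583-128546981) stood at 73.5 CPM at 10 h and 301 CPM at 5 h (log2 ratio -2.02, interval -2.39 to -1.70). Dnajb1 (chr8:83608175-83612653), the main J-domain partner of HSP70 in stress, had 0 to 535 CPM per cell at 10 h (median 63.4) and 0 to 2740 CPM at 5 h (median 225). Its cells overlapped too, yet 2 of 52 at 10 h lay above the 5 h median, and the summed levels were 100 and 367 CPM (-1.87, -2.18 to -1.58). Dnajb4, another J protein, stood at 11.2 CPM at 10 h and 42.2 CPM at 5 h (-1.85).

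These 3 were the members called lower among 16 measured J-protein, BAG and exchange factor genes, none of which was called higher, where 1.76% of all genes were called lower and 11.2% higher. Their median was -0.27, with 11 of 16 below 0. Dnaja1, a cytosolic J protein, stood at 398 CPM at 10 h and 548 CPM at 5 h (-0.46), while Bag5 went the other way, at 47.97 and 30.3 CPM (0.68). Summed over the list, the per-cell level was 0 to 4221 CPM at 10 h (median 2003) and 536 to 5672 CPM at 5 h (median 2661), and 6 of 52 cells at 10 h lay above the 5 h median. At 37 °C, where 13 members were measured, the median over the same interval was 0.06.

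The large chaperone genes differed by less than 1.5-fold. Hsp90ab1, the constitutive cytosolic HSP90, had 600 to 14359 CPM per cell at 10 h (median 6609) and 1022 to 18279 CPM at 5 h (median 9937), with 4 of 52 cells at 10 h above the 5 h median (-0.36, -0.39 to -0.33). Hsp90aa1, the inducible form, stood at 4219 CPM at 10 h and 5202 CPM at 5 h (-0.30, -0.35 to -0.26). Hspa8, the constitutive HSP70, stood at 2703 and 3296 CPM (-0.29), and in the 37 °C pair it was also lower at 10 h (-0.26). Hsph1 (chr5:149616843-149636498), an HSP110 exchange factor, stood at 1408 CPM at 10 h and 1838 CPM at 5 h (-0.38, -0.47 to -0.30), with single cells from 0 to 6673 CPM (median 855) at 10 h and 0 to 10510 CPM (median 1588) at 5 h. All 5 measured members of the HSP70 and HSP110 list (of 9) were below 0, with a median of -0.29, against -0.27 at 37 °C. The HSP90 list had 9 of 13 measured members below 0 and a median of -0.30, against -0.12 at 37 °C. Its exceptions included Unc45a, a myosin chaperone, at 31.6 and 13.4 CPM (1.26).

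Hspa1a, the classical stress-inducible HSP70, was detected in few cells. Without thinning, and so at unequal depth, a UMI was present in 5.77% of cells at 10 h and 8.97% at 5 h. The highest cell held 876 CPM at 10 h and 7406 CPM at 5 h. Summed, it stood at 29.6 CPM at 10 h and 93.8 CPM at 5 h (-1.64), and it moved to -3.40 without cell 4 of the 10 h group. The gene has a near-identical copy, Hspa1b, and with entries that are not whole numbers left out its ratio turned to 0.44, so its level is uncertain. The chaperonin and prefoldin list (14 measured, 12 below 0) had a median of -0.23, and the mitochondrial chaperone list (12 measured, 9 below 0) one of -0.09. In the mitochondrial list the most abundant member, Hspd1, stood at 2523 and 3263 CPM (-0.37), and Htra2 was lowest, at 41.8 and 82.7 CPM (-0.97). Of the small heat shock protein list 1 of 6 members was measured, Hspb11 at 22.5 CPM at 10 h and 16.4 CPM at 5 h (0.47).

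**Figure D2:**
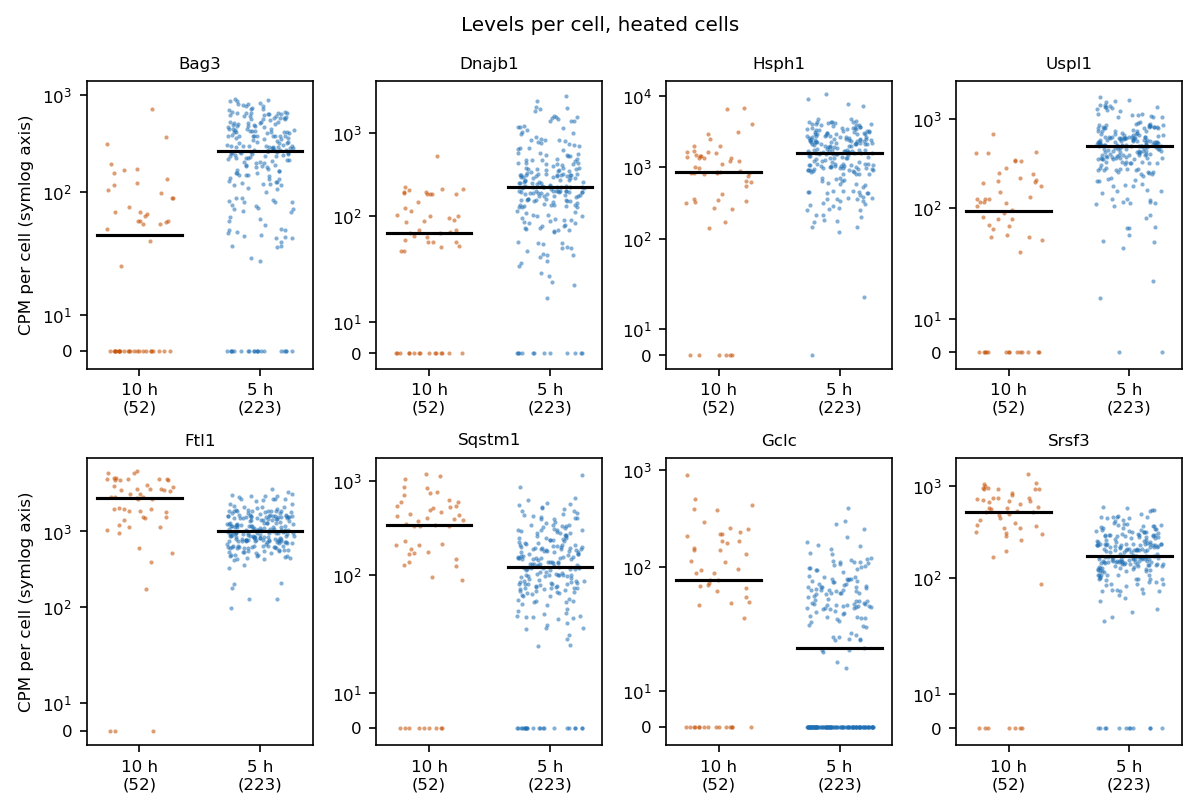
CPM per cell of 8 genes, on an axis that is linear up to 30 CPM and logarithmic above, for the 52 heated cells at 10 h (left in each panel) and those at 5 h (right, their number under the axis); each point is a cell and the bar is the median. Bag3, Dnajb1, Hsph1 and Uspl1 have lower medians at 10 h, Ftl1, Sqstm1, Gclc and Srsf3 have higher ones, and the cells of the groups overlap in every panel.

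Genes of ubiquitin, SUMO and protein turnover were among the 15 first-ranked lower genes. Ubb, a polyubiquitin gene, had 0 to 1812 CPM per cell at 10 h (median 500) and 0 to 4182 CPM at 5 h (median 1177), and 3 of 52 cells at 10 h lay above the 5 h median (-0.99, -1.11 to -0.87). Zfand2a, a proteasome-associated zinc finger protein induced by heat and arsenite, stood at 32.7 CPM at 10 h and 90.5 CPM at 5 h (-1.45). Uspl1 (chr5:149184560-149215434), a SUMO protease of Cajal bodies, had 0 to 678 CPM per cell at 10 h (median 90.6) and 0 to 1786 CPM at 5 h (median 499). The ranges overlapped, with 1 of 52 cells at 10 h above the 5 h median. Its log2 ratio was -2.01 (-2.29 to -1.76), against -0.32 in the 37 °C pair. Of 34 measured proteasome genes none was called either way, beside 12.9% of all genes. Most of them lie at a mean of 100 to 500 CPM, where 2.96% of genes were called higher and 0.74% lower, so few calls could occur. Of the 34, 16 were above and 18 below 0, and the median was -0.03. The ubiquitin list had 7 of 11 members below 0 and a median of -0.13.

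Other first-ranked lower genes were Mtf1, the metal-responsive transcription factor, at 29.6 CPM at 10 h and 87.2 CPM at 5 h (-1.54), and Fam110a, a centrosomal protein gene, at 22.5 and 78.6 CPM (-1.78). Ctsl, the lysosomal protease cathepsin L, stood at 28.6 and 80.8 CPM (-1.47), which moved to -0.49 as a mean of per-cell CPM. Tnfrsf19, a TNF receptor family member, stood at 41.8 and 103.4 CPM (-1.29), and at 37 °C it was higher at 10 h (1.23). The difference between the arms was not tested.

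Short structured noncoding RNAs were lower at 10 h, and Rn4.5s had the lowest log2 ratio of all measured genes. Rn4.5s, a small rodent RNA made by RNA polymerase III from many gene copies, among which reads cannot be told apart, had 0 to 14144 CPM per cell at 10 h (median 234) and 47.7 to 159633 CPM at 5 h (median 3296). Of the cells at 10 h, 5 of 52 lay above the 5 h median. Summed, it stood at 577 and 5994 CPM (-3.38, -3.50 to -3.26), or -2.71 as a mean of per-cell CPM, and the 37 °C pair differed in the same direction at far lower levels (161.6 CPM at 10 h, 468 CPM at 5 h). Rpph1, the RNA of ribonuclease P, stood at 58.2 CPM at 10 h and 244 CPM at 5 h (-2.05), and Rmrp, the RNA of ribonuclease MRP, at 11.2 and 80.2 CPM (-2.77). Vaultrc5, a vault RNA, rested on 9 UMIs at 10 h and 268 at 5 h (-2.02).

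All 5 measured members of this list (of 15, of which 10 are in the table) were below 0, and 4 were called, beside 1.76% of all genes called lower. These RNAs were unevenly spread. A single cell at 10 h held 6601 CPM of Rpph1, so that its ratio was -0.23 as a mean of per-cell CPM and -2.73 without the 7 and 3 doubted cells. The list median likewise was -2.05 with all cells, -0.23 as a mean of per-cell CPM and -3.01 without the doubted cells. Vaultrc5 turned to 0.03 as a mean of per-cell CPM, and Rmrp moved to -3.55 without cell 25 of the 10 h group. Rn45s itself stood at 105774 CPM at 10 h and 135652 CPM at 5 h (-0.36).

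Cholesterol synthesis genes were the metabolic group that stood lowest at 10 h. Of 18 measured members (of 25), 17 were below 0 and 8 were called lower, against 1.76% of all genes, and the median was -1.00. With the filter on the mean of the 2 groups, which leaves out Lss, 7 of 16 were called lower, beside 1.36% of all genes. Fdps, which makes farnesyl diphosphate, had 0 to 171.2 CPM per cell at 10 h (median 11.7) and 0 to 897 CPM at 5 h (median 117.9), and 5 of 52 cells at 10 h lay above the 5 h median (-1.63, -2.12 to -1.20). Idi1, the isopentenyl diphosphate isomerase, stood at 18.4 CPM at 10 h and 64.03 CPM at 5 h (-1.76). Lss, lanosterol synthase, stood at 7.14 and 23.2 CPM (-1.60), or -2.29 without cell 31 of the 10 h group. The exception was Sc5d, a late desaturase, at 35.7 and 30.5 CPM (0.24).

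The same direction was present without the 45 °C step. At 37 °C, 7 of 8 measured members were below 0 and the median was -0.54, with 1 called lower against 4.06% of genes of that pair. The summed list stood at 413 CPM at 10 h and 888 CPM at 5 h in heated cells, and at 664 and 1030 CPM in 37 °C cells. Whether the arms differ in this was not tested. Per cell the summed level was 0 to 1150 CPM at 10 h (median 375) and 0 to 3967 CPM at 5 h (median 751), and 3 of 52 cells at 10 h lay above the 5 h median.

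**Figure D3:**
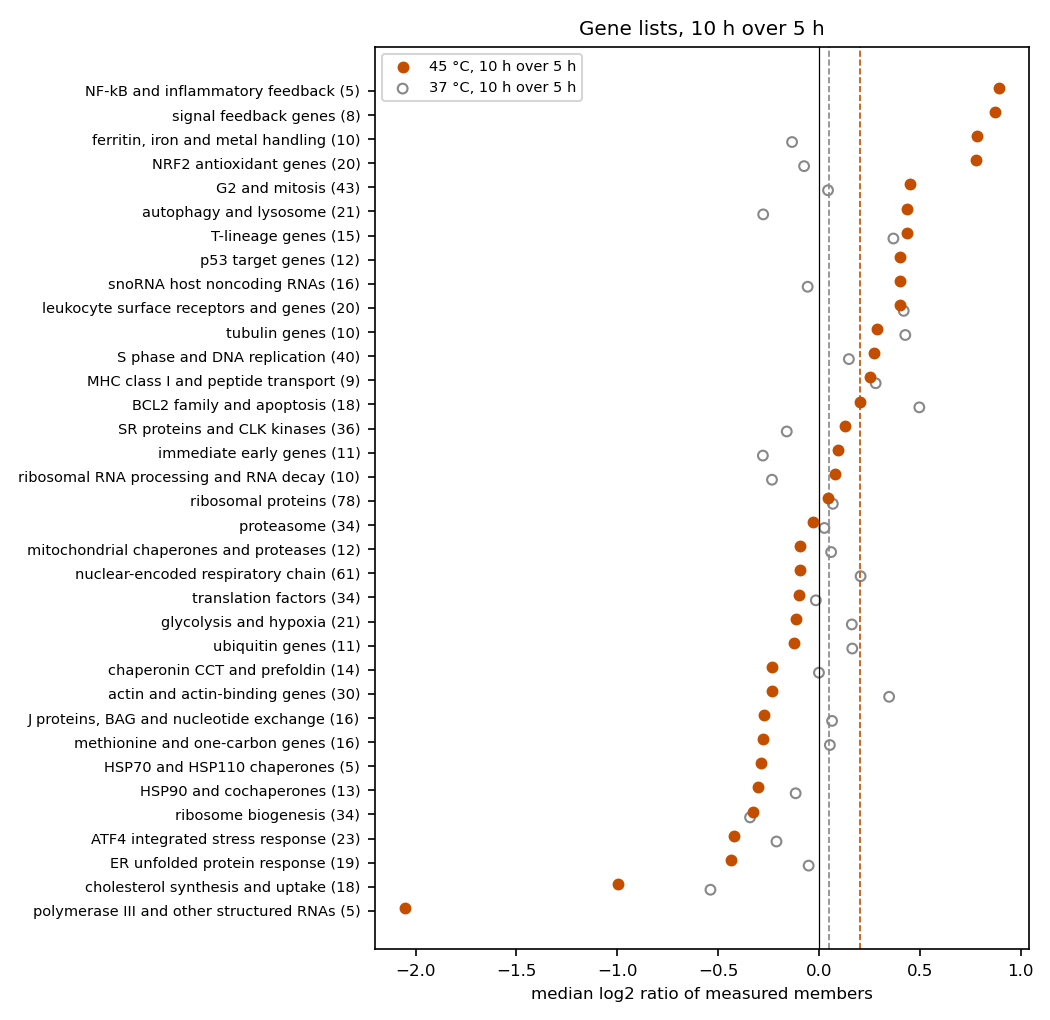
Median log2 ratio of the measured members of each gene list with at least 5 of them, for heated cells at 10 h over 5 h (filled) and for 37 °C cells at 10 h over 5 h (open, where at least 5 members were measured); numbers after the names count the members measured in heated cells, and dashed lines mark the median of all genes in each pair (0.20 and 0.05). The structured RNAs and cholesterol lists lie farthest to the left, and the NF-kB, feedback, ferritin and NRF2 lists farthest to the right.

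Genes of the endoplasmic reticulum (ER) stress response and of the ATF4 program were mostly lower at 10 h. In the ER list 14 of 19 measured members were below 0, with 2 called lower (1.76% of all genes), 1 called higher (11.2% of all genes) and a median of -0.43, against -0.05 at 37 °C. Hspa5, the main ER chaperone BiP, went the other way, at 422 CPM at 10 h and 335 CPM at 5 h (0.33, 0.18 to 0.48). Calr, a calcium-binding ER chaperone, stood at 323 CPM at 10 h and 541 CPM at 5 h (-0.74, -0.92 to -0.58), and Herpud1, which serves ER-associated degradation, at 40.8 and 85.6 CPM (-1.05). Sdf2l1, an ER chaperone partner, stood at 24.5 and 52.1 CPM (-1.06), whereas Syvn1, the ubiquitin ligase of that degradation route, stood at 29.6 and 14.7 CPM (1.03). The ATF4 list had 18 of 23 members below 0, 2 called lower and a median of -0.42, against -0.21 at 37 °C. Atf4 itself stood higher, at 429 CPM at 10 h and 313 CPM at 5 h (0.46, 0.30 to 0.61); Hspa5 and Atf4 were named after their values were seen. With the filter on the mean of the 2 groups, 15 of 20 members were below 0 and 1 was called lower. Ddit4, an inhibitor of mTOR signalling, stood at 21.4 and 56.1 CPM (-1.36), and Chac1, a glutathione-degrading enzyme, at 5.10 and 25.6 CPM (-2.19), or -2.83 without cell 41 of the 10 h group. Ddit3, the stress factor CHOP, stood at 28.6 CPM at 10 h and 19.7 CPM at 5 h (0.56). Shmt2, the mitochondrial enzyme of serine and one-carbon metabolism, stood at 222.5 and 381 CPM (-0.77, -0.98 to -0.58).

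Several growth-related groups were modestly lower as well. Ribosome biogenesis genes had 28 of 34 measured members below 0 and a median of -0.33, and at 37 °C they had 28 of 33 below 0 and a median of -0.34. Ncl, the nucleolar protein nucleolin, stood at 1368 CPM at 10 h and 2167 CPM at 5 h (-0.66, -0.75 to -0.58), and 3 of 52 cells at 10 h lay above the 5 h median of 2087 CPM. Rrp12 and Rrp9, factors of ribosomal RNA processing, were the 2 members called lower (-2.29 and -1.14), beside 1.76% of all genes. With the filter on the mean of the 2 groups, which leaves out Rrp12, 1 of 33 was called lower, beside 1.36% of all genes. At 37 °C 3 members were called lower, beside 4.06% of genes of that pair. Srm, spermidine synthase, stood at 172.5 and 325 CPM (-0.91) in a methionine and one-carbon list of which 11 of 16 members were below 0 (median -0.28). Translation factors had 27 of 34 below 0 (median -0.10), with Eif4a1, an RNA helicase of initiation, as an exception at 646 and 378 CPM (0.77).

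Energy metabolism showed small differences. Nuclear-encoded respiratory chain genes had 44 of 61 below 0 and a median of -0.09, against 0.21 at 37 °C. Glycolysis and hypoxia genes had 15 of 21 below 0 and a median of -0.11, with Ldha, lactate dehydrogenase A, at 516 and 850 CPM (-0.72), and with the glucose transporter gene Slc2a1 at 31.6 and 13.2 CPM (1.27). Actin and actin-binding genes had 23 of 30 below 0 and a median of -0.23, while at 37 °C 26 of 30 were above 0 with a median of 0.35. Actb, the cytoplasmic actin, stood at 6715 CPM at 10 h and 8663 CPM at 5 h in heated cells (-0.37, -0.40 to -0.33), and at 10615 and 8116 CPM in 37 °C cells (0.39, 0.29 to 0.48). The list medians of the 2 arms had opposite signs, and this difference was not tested. Ribosomal protein genes had 60 of 78 above 0 but a median of 0.05, which turned to -0.16 after centring, -0.23 with TMM factors and -0.05 as a mean of per-cell CPM.

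NRF2 target genes stood higher at 10 h. Of 20 measured members (of 26), 18 were above 0 and 7 were called higher, against 11.2% of all genes, with none called lower. The median was 0.78, or 0.51 with TMM factors, and at 37 °C it was -0.07 with 5 of 14 above 0. Gclc (chr9:77754535-77794489), the catalytic subunit of the enzyme that limits glutathione synthesis, had 0 to 876 CPM per cell at 10 h (median 74.5) and 0 to 402 CPM at 5 h (median 21.8). Although the ranges overlapped, 37 of 52 cells at 10 h lay above the 5 h median, and the summed levels were 163.3 and 39.9 CPM (2.03, 1.74 to 2.32). Gclm, its modifier subunit, stood at 77.6 CPM at 10 h and 25.995 CPM at 5 h (1.58, 1.17 to 1.97). Me1, the cytosolic malic enzyme that makes NADPH, stood at 50.01 and 11.2 CPM (2.17, 1.62 to 2.70), and Abcc1, an exporter of glutathione conjugates, at 45.9 and 15.7 CPM (1.56).

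The remaining called members were Gsr, glutathione reductase (1.25), Nfe2l2, which encodes NRF2 itself (1.14), and Txnrd1, thioredoxin reductase (1.01). These were named after their values were seen. Of the called members, those measured at 37 °C were also higher at 10 h there: Gclc (0.49), Txnrd1 (0.52) and Nfe2l2 (0.67). Gclm, Me1, Gsr and Abcc1 were not measured at 37 °C, and the difference between the arms was not tested. Prdx1, a peroxiredoxin, stood at 682 CPM at 10 h and 463 CPM at 5 h (0.56), and Txn1, thioredoxin, at 529 and 438 CPM (0.27). Tkt, transketolase, was below 0 (-0.20). The summed NRF2 list held 0 to 8452 CPM per cell at 10 h (median 3022) and 0 to 5549 CPM at 5 h (median 2364), and 37 of 52 cells at 10 h lay above the 5 h median. At 5000 UMIs per cell, Gclc was found in 36.2% of cells at 10 h (22.7 to 51.5%) and 14.9% at 5 h (10.5 to 20.2%), and without thinning in 71.2% and 52.5%.

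Ferritin genes stood higher at 10 h in most cells. Ftl1, the ferritin light chain, had 0 to 6221 CPM per cell at 10 h (median 2778) and 97.4 to 3586 CPM at 5 h (median 1000), and 44 of 52 cells at 10 h lay above the 5 h median. The summed levels were 3077 and 1201 CPM (1.36, 1.30 to 1.42), against 0.14 in the 37 °C pair. Fth1, the heavy chain that oxidises iron, stood at 1028 CPM at 10 h and 489 CPM at 5 h (1.07, 0.97 to 1.17), and 38 of 52 cells at 10 h lay above the 5 h median. Slc30a1, a zinc exporter that MTF1 is known to raise, stood at 166.4 and 60.8 CPM (1.45, 1.18 to 1.72) while Mtf1 itself was lower. Fbxl5, an iron-sensing ubiquitin ligase subunit, stood at 27.6 and 13.1 CPM (1.09). In the whole list 8 of 10 measured members (of 14) were above 0, 4 were called higher and 1 lower, beside 11.2% and 1.76% of all genes, and the median was 0.78, against -0.13 at 37 °C.

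**Figure D4:**
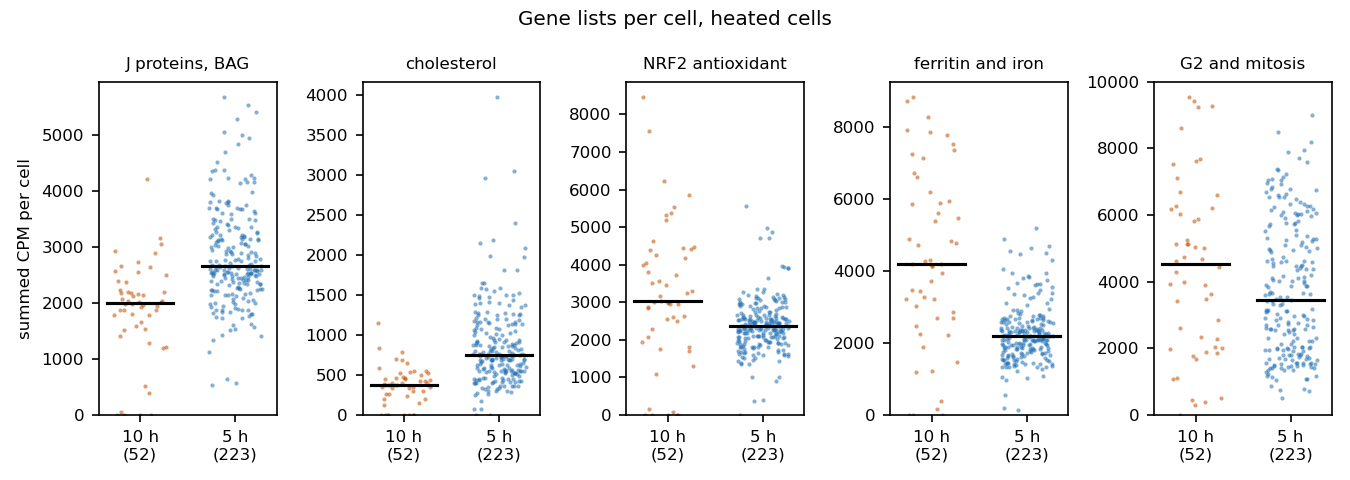
Summed CPM per cell over 5 gene lists, for the 52 heated cells at 10 h (left) and those at 5 h (right), on linear axes from 0; each point is a cell and the bar is the median. The J-protein and BAG list (2003 and 2661 CPM) and the cholesterol list (375 and 751 CPM) have lower medians at 10 h, and the NRF2 (3022 and 2364 CPM), ferritin (4199 and 2188 CPM) and mitosis lists (4529 and 3444 CPM) have higher ones.

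Autophagy and lysosome genes were mostly above 0, at 17 of 21 measured members (of 27), beside 65.5% of all genes. Of them 4 were called higher and 1 lower (Ctsl), beside 11.2% and 1.76% of all genes. With the filter on the mean of the 2 groups, 2 of 18 were called higher, or 11.1%, beside 8.5% of all genes. The list median was 0.44, or 0.17 with TMM factors and -0.28 at 37 °C. Sqstm1, the selective autophagy adaptor p62, had 0 to 1177 CPM per cell at 10 h (median 338) and 0 to 1170 CPM at 5 h (median 121.2), and 41 of 52 cells at 10 h lay above the 5 h median (1.36, 1.19 to 1.52). In the 37 °C pair the same gene had 17.3 CPM at 10 h and 77.96 CPM at 5 h, which rests on 3 UMIs at 10 h, the smallest level counted as detectable there, and 19 at 5 h. Gabarapl1, a member of the ATG8 family that coats autophagosomes, stood at 225 CPM at 10 h and 103.5 CPM at 5 h (1.12, 0.89 to 1.34), again with 41 of 52 cells above the 5 h median. Tfeb, a transcription factor of lysosomal genes, rested on 22 UMIs at 10 h and 49 at 5 h (1.66).

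Of the 15 first-ranked higher genes, Gclc, Sesn1, Gimap6, Gimap9, Srsf3 and Neat1 are given with their groups in other paragraphs. The rest of the 15 are given next. Ypel3, a gene tied to growth arrest in human cells, had 0 to 553 CPM per cell at 10 h (median 53.8) and 0 to 251.2 CPM at 5 h (median 0), which came to 89.8 and 19.1 CPM (2.24, 1.83 to 2.64, or 3.50 at 5000 UMIs per cell). At 5000 UMIs per cell it was found in 36.2% of cells at 10 h and 4.95% at 5 h, and without thinning in 59.6% and 34.1%. Cited2, a co-regulator that binds CBP and p300, had 0 to 699 CPM per cell at 10 h (median 166.8) and 0 to 999 CPM at 5 h (median 30.8), and stood at 204.1 and 54.3 CPM (1.91, 1.65 to 2.16). Klf13 and Klf2, zinc finger factors of lymphocytes, stood at 149.01 CPM at 10 h and 36.6 CPM at 5 h (2.03) and at 71.4 and 18.2 CPM (1.98). Atf7ip, a partner of the histone methyltransferase SETDB1, stood at 68.4 and 17.3 CPM (1.98).

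The others had varied roles. S100a11, a calcium-binding protein gene, stood at 75.5 CPM at 10 h and 16.7 CPM at 5 h (2.18, or 2.78 at 5000 UMIs per cell), Rnf19b, a ubiquitin ligase of leukocytes, at 73.5 and 18.5 CPM (1.99), and Tubb2a, a beta tubulin, at 74.5 and 18.7 CPM (2.002). Akap13, a kinase anchor, stood at 108.2 and 30.3 CPM (1.84). The cells overlapped for all of these, since at least 1 cell of each group was at 0. In the 37 °C pair Klf2 differed by -0.36 and Akap13 by 0.06, and the other members of this paragraph had too few UMIs there to be measured.

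Of the feedback genes of growth signalling, 8 of 19 members were measured, 7 were above 0 (65.5% of all genes) and 4 were called higher (11.2% of all genes), and the median was 0.87. With the filter on the mean of the 2 groups, 3 of 7 were called higher, beside 8.5% of all genes, and the median was 0.57. Of these 3, Tob1 and Dusp2 were under 20 CPM at 5 h and passed the first filter only through the 10 h group. Tob1, an antiproliferative gene of the BTG family, stood at 73.5 and 7.20 CPM (3.35, 2.81 to 3.91). Without thinning, and so at unequal depth, it was found in 22 of 52 cells at 10 h and in 16.6% of cells at 5 h. Dusp6, the phosphatase that turns off ERK, stood at 181.7 and 80.5 CPM (1.18, 0.92 to 1.42), and Socs1, an inhibitor of cytokine receptors that passed the filter only through the 10 h group, at 22.5 and 4.70 CPM (2.27). Dusp2, a nuclear ERK phosphatase, had a ratio of 1.29 that turned to -0.24 without cell 48 of the 10 h group. Smad7, which dampens TGF-beta signalling, was the member below 0, at 117.4 CPM at 10 h and 215.6 CPM at 5 h (-0.87, -1.16 to -0.60).

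Immediate early genes showed no shared direction, with 6 of 11 measured members above 0 and a median of 0.09, which turned to -0.11 after centring and -0.18 with TMM factors. Junb stood at 65.3 CPM at 10 h and 120.7 CPM at 5 h (-0.88, or -0.25 at 5000 UMIs per cell). Nr4a2 (2.43) and Fosl2 (1.81) both leaned on cell 21 of the 10 h group, and without it stood at 0.91 and 0.15.

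In the p53 list 9 of 12 measured members (of 26) were above 0 and 5 were called higher, beside 65.5% and 11.2% of all genes, with a median of 0.40. With the filter on the mean of the 2 groups, 3 of 10 were called higher, beside 8.5% of all genes, and the median was 0.31. These 3, Sesn1, Gadd45a and Xpc, were each under 20 CPM at 5 h and passed the first filter only through the 10 h group. Sesn1, a stress-induced regulator of mTOR, stood at 66.3 CPM at 10 h and 18.4 CPM at 5 h (1.86, 1.398 to 2.30), Gadd45a, a growth arrest gene, at 33.7 and 10.4 CPM (1.70), and Xpc, a DNA damage sensor, at 42.9 and 16.9 CPM (1.35, or 1.98 at 5000 UMIs per cell). Trp53inp1, which promotes p53 activity and autophagy, passed the filter only through the 10 h group, with 20 UMIs at 10 h and 4 at 5 h (4.98, 3.54 to 7.13). Mdm2, the classical feedback target of p53, stood at 40.8 and 41.3 CPM (0.00), and Aen, an apoptosis-enhancing nuclease, at 22.5 and 30.5 CPM (-0.42). Of 26 members, 12 passed the filter on low counts, so the list is only partly seen.

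Apoptosis genes had 14 of 18 measured members above 0 and a median of 0.20, the same as all genes; it was 0.00 after centring and -0.07 with TMM factors. Bmf, a BH3-only killer gene, stood at 51.03 CPM at 10 h and 11.7 CPM at 5 h (2.12, 1.58 to 2.65), and Cflar, which blocks caspase-8, at 60.2 and 125.3 CPM (-1.05, -1.46 to -0.68). Apaf1, the apoptosome scaffold, stood at 31.6 and 14.1 CPM (1.18). Casp8 had a ratio of 1.11, or 0.27 at 5000 UMIs per cell. NF-kB genes had 5 of 20 members measured, 4 of them above 0, with Tnip1, a feedback inhibitor, at 29.6 and 9.99 CPM (1.58) and Nfkb1 at 109.2 and 59.04 CPM (0.89, 0.57 to 1.20). The interferon list had 1 of 20 members measured, Irf1 at 37.8 and 19.5 CPM (0.97). MHC class I genes had a median of 0.25, which was -0.02 with TMM factors, with B2m at 492.96 and 414 CPM (0.25).

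Mitotic genes stood higher at 10 h than at 5 h. Of 43 measured members, 37 were above 0, 7 were called higher (16.3% of the list, beside 11.2% of all genes) and none lower. With the filter on the mean of the 2 groups, which leaves out Anln, 6 of 41 were called higher, or 14.6%, beside 8.5% of all genes. The median of the 43 was 0.45, or 0.18 with TMM factors and 0.04 at 37 °C. Cdk1, the kinase that drives mitotic entry, had 0 to 577 CPM per cell at 10 h (median 141.6) and 0 to 597 CPM at 5 h (median 68.9), and stood at 206.2 and 93.99 CPM (1.14, 0.90 to 1.36). Anln, needed for cytokinesis, stood at 27.6 and 11.7 CPM (1.25), and Ttk, a spindle checkpoint kinase, had a ratio of 1.19, or 0.45 at 5000 UMIs per cell. Mki67 and Top2a, broad proliferation markers, stood at 293 and 237 CPM (0.31) and at 374 and 384 CPM (-0.04). Summed over the list, cells held 0 to 9531 CPM at 10 h (median 4529) and 511 to 9001 CPM at 5 h (median 3444), and 33 of 52 cells at 10 h lay above the 5 h median.

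S phase genes had 27 of 40 measured members above 0 and a median of 0.27, which shrank to 0.07 after centring and 0.00 with TMM factors. Rfc3, a subunit of the clamp loader, stood at 161.3 CPM at 10 h and 66.8 CPM at 5 h (1.27, 1.00 to 1.54), and Slbp, which binds histone mRNA, at 196.98 and 88.7 CPM (1.15, 0.91 to 1.39). The helicase subunit genes Mcm6 and Mcm7 stood at 399 and 401 CPM (-0.01) and at 425 and 431 CPM (-0.02). Of 46 clustered histone genes 4 were measured, among them Hist1h2ao at 231 and 276 CPM (-0.26). Hist1h2bc had a ratio of 0.68 that moved to -0.01 without cell 52 of the 10 h group.

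Lymphocyte genes split, with more of them above 0 than below. The T-lineage list had 11 of 15 measured members (of 30) above 0, 3 called higher (11.2% of all genes) and a median of 0.43, and at 37 °C 11 of 12 were above 0 with a median of 0.37. Cd28, the T cell costimulatory receptor, had 97 UMIs at 10 h and 249 at 5 h, a log2 ratio of 1.44 (1.08 to 1.78), and Gata3, a T cell transcription factor, at 239 and 105.4 CPM (1.18, 0.96 to 1.39), while Cd3e differed by -0.18. Cd3g (-0.35), Cd7 (-0.61) and the kinase gene Zap70 (-0.87) had whole intervals below 0, and Cd3g and Cd7 were named after their values were seen. In the leukocyte list 15 of 20 measured members were above 0, with a median of 0.40 against 0.42 at 37 °C, and Ptprcap (-0.49), Cd37 (-0.56), Cd96 (-0.70) and Ly6e (-0.80) were below 0, of which Cd37 and Cd96 were likewise named afterwards. Slfn2, a gene of lymphocyte quiescence, stood at 93.9 and 13.5 CPM (2.80, 2.36 to 3.23), and at 37 °C it was higher at 10 h too (1.09, 0.17 to 2.08). Gimap6 and Gimap9, GTPases of lymphocyte survival both on chromosome 6, stood at 231 CPM at 10 h and 62.1 CPM at 5 h (1.89, 1.65 to 2.13) and at 124.5 and 33.2 CPM (1.91, 1.58 to 2.23). In the 37 °C pair Gimap6 was at 0.90 (0.30 to 1.52) and Gimap9 at -0.29 (-1.47 to 0.77).

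RNA-processing genes split. Srsf3 (chr17:29032660-29043372), an SR splicing factor, had 0 to 1351 CPM per cell at 10 h (median 528) and 0 to 596 CPM at 5 h (median 171.96), with 43 of 52 cells at 10 h above the 5 h median. Summed, it stood at 606 and 208.1 CPM (1.54, with an interval of 1.402 to 1.68), against 0.15 at 37 °C. Srsf5, a related factor, stood at 194.9 and 79.9 CPM (1.29), and Srpk2, an SR protein kinase, at 68.4 and 29.8 CPM (1.20). Clk1, the kinase that re-phosphorylates SR proteins after heat stress, was lower, at 69.4 and 142.75 CPM (-1.03, -1.42 to -0.68), and it was also lower at 37 °C (-0.99, -2.32 to 0.10). The whole list of 36 had 22 above 0 and a median of 0.13, which turned to -0.07 after centring and -0.14 with TMM factors.

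Noncoding RNAs that host small nucleolar RNAs had 13 of 16 measured members above 0 and a median of 0.40, or 0.13 with TMM factors, against -0.06 at 37 °C. Snhg3 stood at 146.97 CPM at 10 h and 59.3 CPM at 5 h (1.31), Snhg5 at 151.1 and 60.9 CPM (1.31), and Gas5, the best covered of them, at 785 and 566 CPM (0.47, 0.36 to 0.58). The nuclear RNA Neat1, scaffold of paraspeckles, had 0 to 439 CPM per cell at 10 h (median 60.8) and 0 to 434 CPM at 5 h (median 0), and stood at 96.96 and 27.9 CPM (1.80, 1.43 to 2.16). Its neighbour Malat1 stood at 651 and 841 CPM (-0.37, -0.49 to -0.25). Tubulin genes had 9 of 10 measured members above 0 and a median of 0.29, or 0.02 with TMM factors. The RNA decay list had a median of 0.08. Of the cold-inducible list 3 of 4 members were measured, without Cirbp, and their median was 0.09. Rbm3 was lower at 10 h, at 415 and 482 CPM (-0.21, -0.37 to -0.07), and below the unheated range of 665 to 818 CPM at both times. Rbm5 (0.41) and Rbmx (0.09) were above 0.

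The levels at 10 h and 5 h were next set beside those of the 6 unheated groups, which are the 37 °C arm at 5 times and the 45 °C arm before heating. The genes were ranked by the same 10 h and 5 h sums, which favours such contrasts, so the placements are a description only. The placement of all measured genes was not counted, and the same limit holds for the levels over time given after it. Of the 15 first-ranked higher genes, 7 stood above every unheated group at 10 h and below every one at 5 h: Akap13, Atf7ip, Gimap9, Klf2, S100a11, Sesn1 and Srsf3. Another 6 (Cited2, Gclc, Klf13, Neat1, Rnf19b and Tubb2a) were above the unheated range at 10 h and inside it at 5 h, Ypel3 was above it at both times, and Gimap6 was inside it at 10 h and below it at 5 h. Thus Srsf3 stood at 606 CPM at 10 h and 208.1 CPM at 5 h beside an unheated range of 445 to 571 CPM. Gclc stood at 163.3 and 39.9 CPM beside 34.9 to 98.1 CPM.

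Of the 15 first-ranked lower genes, 5 (Bag3, Dnajb1, Rmrp, Rpph1 and Zfand2a) were above the unheated range at both times, and 6 (Ctsl, Fam110a, Mtf1, Rn4.5s, Tnfrsf19 and Uspl1) were inside it at 10 h and above it at 5 h. Ubb was below the range at 10 h and above it at 5 h. The cholesterol genes Fdps and Idi1 were below the range at 10 h and inside it at 5 h. Dnajb1 thus stood at 100 CPM at 10 h and 367 CPM at 5 h beside 32.9 to 69.7 CPM, and Uspl1 at 126.6 and 512 CPM beside 45.5 to 131.3 CPM. The unheated groups held 6 to 11 cells each, so their range is wide for scarce RNAs.

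Over the whole course in heated cells, Bag3 stood at 0 CPM before heating, then 22.99 CPM at 1 h, 301 CPM at 5 h, 73.5 CPM at 10 h and 37.3 CPM at 15 h. Rn4.5s was highest earlier, with 109.8 CPM before heating, then 12953 CPM at 1 h, 5994 CPM at 5 h, 577 CPM at 10 h and 2233 CPM at 15 h. Hsph1 declined later than Bag3, with 154.7, 267, 1838, 1408 and 485 CPM at these times. Bag3 and Hsph1 were highest at 5 h, and Rn4.5s at 1 h.

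Some genes were highest at 10 h and others stayed up. Gclc stood at 34.9, 34.5, 39.9, 163.3 and 41.8 CPM from -1 to 15 h, Ypel3 at 9.98, 6.90, 19.1, 89.8 and 13.4 CPM, and Sqstm1 at 39.9, 78.2, 167.1, 428 and 131.3 CPM. Neat1 stood at 15.0, 11.5, 27.9, 96.96 and 122.3 CPM, and Me1 at 4.99, 6.90, 11.2, 50.01 and 58.2 CPM. Srsf3 was lowest at 5 h, with 474, 494, 208.1, 606 and 591 CPM, and so was Gimap6, with 199.6, 147.1, 62.1, 231 and 365 CPM. The groups at -1, 1 and 15 h held 6, 13 and 21 cells.

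**Figure D5:**
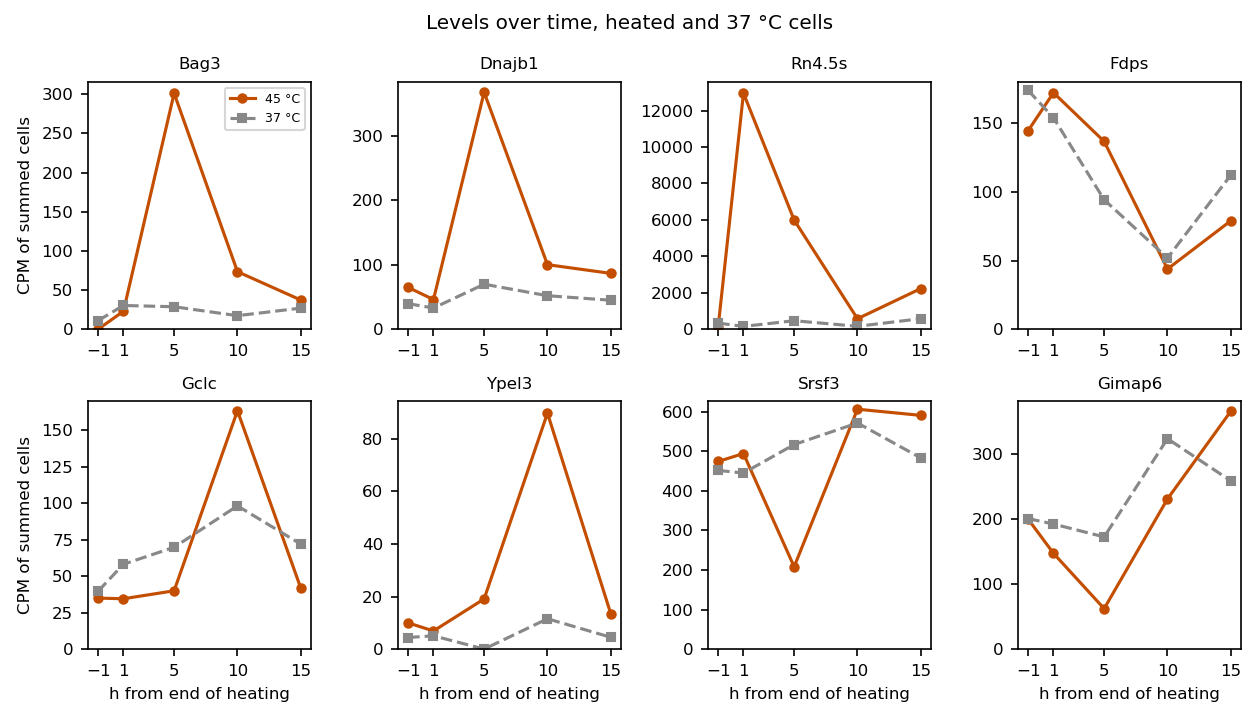
CPM of summed cells against the h from the end of heating (negative before it) for 8 genes, in cells heated at 45 °C (circles, solid) and in 37 °C cells (squares, dashed), on linear axes from 0; each point is 1 group of cells with no error bar. Bag3, Dnajb1 and Rn4.5s are down at 10 h from peaks at 5 or 1 h, Gclc and Ypel3 peak at 10 h, Srsf3 and Gimap6 are lowest at 5 h, and Fdps is lowest at 10 h in both arms.

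Finally, the called genes of the heated pair were compared with those of the 37 °C pair, which shares no cells with it. In 37 °C cells, 4.56% of 3424 measured genes were called higher at 10 h and 4.06% lower, with a median of 0.05. Among the 3413 genes measured in both pairs, 12 were called higher in both, which is 8.51% of those called higher in heated cells and 7.74% of those in 37 °C cells. Another 10 were called higher in heated cells and lower at 37 °C. Of 35 genes called lower in heated cells, 4 were also called lower at 37 °C and 2 were called higher. With 6 cells a group at 37 °C, differences of scarce RNAs there were not detectable at this depth.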

How the data were processed

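Gene expression was measured in 360 single C1498 cells, each picked, lysed and turned into a library whose reverse transcription primer carries a molecular barcode, per the labels' protocols. The deposited table holds estimated counts of molecules (UMIs) for 24781 genes and 360 cells. Of 1732996 values above 0, 5.30% are not whole numbers, and these hold 25.9% of UMIs, although whole counts had been assumed when the design was set. The authors made it from reads aligned with STAR to mm10, per the submitters' processing notes, with versions, counting program and annotation not given in the sources used here. Spike-in RNAs are not analysed here. Cells were grouped by sample title (52 at 10 h and 223 at 5 h after 45 °C; 6 and 6 at 37 °C).

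Counts were summed over the cells of a group, rounded, and expressed as CPM. The log2 ratio adds 0.5 UMI to each sum, and its 95% interval is an exact conditional binomial (Clopper-Pearson) interval, as are intervals of shares. All intervals cover counting error only. A gene was measured with at least 20 UMIs in both groups together and at least 20 CPM in the higher group. Shares of cells with a UMI, except those given as without thinning, were taken after thinning each cell to 5000 UMIs. This kept 47 cells at 10 h (5 left out) and 222 at 5 h (1 left out). The smallest detectable level, 3 UMIs, is 3.06 CPM at 10 h and 0.441 CPM at 5 h, and 17.3 and 12.3 CPM in the 37 °C groups. Interval coverage was tested on simulated whole counts that varied by counting error only. That check cannot show how the intervals do with variation between cells or cultures, or with values that are not whole.

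The first-ranked genes are 15 in each direction with at least 50 CPM and a UMI in at least 50% of cells of the higher group, an interval beyond 0, and 1 direction in the sum, the mean and the median of per-cell CPM and without any single cell. They are ranked by the interval bound nearest 0, and predicted genes are left unnamed, as are ribosomal protein genes outside the lists. From each of 41 gene lists the highest and lowest ratio, up to 4 members past 2-fold and the 2 with most UMIs could be named, which gave 196 genes, 192 with RefSeq coordinates; 9 further lists hold cell type markers. The members and lists were chosen with earlier results of these data known. Alternatives covered scaling, depth, filters, the UMI added, whole-number entries and leaving out each cell; leaving out cells of at least 50% Rn45s or under 5000 UMIs and requiring a mean of the 2 groups of at least 20 CPM were added after seeing the data. Python 3.11.15, pandas 2.3.3, numpy 2.4.6, scipy 1.17.1, matplotlib 3.10.9, R 4.3.3 and edgeR 4.0.16 (TMM factors only) were used. Promoter sequences and coordinates are from RefSeq (GRCm38.p6). A few genes the naming rule selects are not reported here.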

Additional observations from a re-analysis of the deposited data

Results flagged for a closer look

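Of 93 sets of 6 cells, from groups at 37 °C or before heating, 21 held a cell far from the other 5. Each of these 21 was a first-ranked gene in 1 such group. Chance flags about 1 in 20 groups of normally distributed values, and that rate cannot be applied to these sparse counts, in which the other 5 cells can all be at or near 0. The next cell was at 0 for Ypel3 and Rpph1, for Tubb2a before heating and for Rmrp in each of its groups. Highest cells among the 6 at 37 °C and 10 h stood at 68.6 CPM for Ypel3, 297.0 CPM for Gclc, 164.6 CPM for Tubb2a, 549 CPM for Rn4.5s, 27.4 CPM for Rmrp and 127.3 CPM for Fdps. At 37 °C and 5 h the highest cells stood at 97.9 CPM for Tubb2a, 71.1 CPM for Atf7ip, 72.2 CPM for Sesn1, 18.1 CPM for Rmrp and 144.4 CPM for Dnajb1, and a lowest cell at 0 CPM stood apart for Gclc, Rnf19b and Uspl1. In the 6 cells of the 45 °C arm before heating, highest cells stood at 286 CPM for Klf13, 71.5 CPM for Tubb2a, 58.9 CPM for Neat1, 161.4 CPM for Sesn1, 47.3 CPM for Rmrp, 37.8 CPM for Rpph1 and 62.8 CPM for Zfand2a. Tnfrsf19 had opposite directions in the arms, with a log2 ratio of -1.29 in heated cells and 1.23 (0.05 to 2.55) in 37 °C cells, and the difference was not tested.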

How the results depend on the processing

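Counts of genes at least 2-fold different moved with the settings, and the cause was not tested. In heated cells 699 genes were higher and 110 lower at 10 h; these became 433 and 180 after centring on the median gene, 360 and 236 with TMM factors, 236 and 44 where the higher group had at least 50 CPM, and 3555 and 760 with no filter on level, which tests more genes. Thinning every cell to 5000 UMIs left the higher count at 691 and gave 256 lower. Where the whole interval had to lie past 2-fold, 2.94% of measured genes were higher and 0.479% lower, against 11.2% and 1.76%. At 37 °C, thinning left 11 higher and 10 lower, no filter gave 1552 and 1651, and adding 2 UMIs gave 75 lower. Leaving out 1 cell at a time gave 666 to 753 higher genes in heated cells, and Dusp2 (1.29) ranged between -0.24 and 1.396. Vaultrc5 reversed to 0.029 as a mean of per-cell CPM and Hspa1a to 0.44 with whole-number entries only. Over all alternatives, 2156 values of single genes stayed within their interval, 320 moved and 3 reversed; of list medians 425 stayed and 30 moved. Shares of cells with a UMI depend on depth. No paired analysis was possible because the replicate numbers only number the cells and no test was made.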

Other observations

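The shares of cells with a UMI of 4 first-ranked genes are given as a description, since the genes were chosen after their values were seen and each group is 1 sample. At 5000 UMIs per cell, Cited2 was found in 57.4% of cells at 10 h (42.2 to 71.7%) and 18.5% at 5 h (13.6 to 24.2%), and Gimap6 in 65.96% (50.7 to 79.1%) and 22.1% (16.8 to 28.1%). Uspl1 was found in 48.9% of cells at 10 h (34.1 to 63.9%) and 84.7% at 5 h (79.3 to 89.2%), and Fdps in 17.02% (7.6 to 30.8%) and 43.7% (37.1 to 50.5%). Without thinning the shares were 71.2% and 59.2% for Cited2, 73.1% and 63.2% for Gimap6, 73.1% and 99.1% for Uspl1, and 50% and 86.5% for Fdps. The intervals cover counting of cells only, and cells of a group share a culture or cultures that the labels do not name.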
